A study of Homo sapiens with 8 samples.

Results

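The genes described here encode the first committed steps of glucose use: the 3 subunits of phosphofructokinase-1 (PFKL, PFKM and PFKP), 3 of the bifunctional enzymes that set its activator (PFKFB2, PFKFB3 and PFKFB4), hexokinases 1 and 2 (HK1 and HK2) and the facilitative glucose transporters GLUT1 and GLUT3 (SLC2A1 and SLC2A3). They are 10 of 19056 genes matched to the arrays, listed by symbol and found through the RefSeq accession of each probe. All 10 were matched, by 15 probes, and 5 of them had more than 1 probe.

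The cells were A549, an established line from a human lung carcinoma. In the EEDS series they received the vehicle or 1.25, 5 or 20 μg/mL EEDS, the ethanol extract of Descurainia sophia seeds, and in the helveticoside series the vehicle or 3.75, 15 or 60 nM helveticoside, a cardiac glycoside, a class of compounds that inhibits the sodium pump. Each condition was 1 single-dye Agilent array of RNA pooled from 3 cultures, so there were 8 arrays, no replicate of a dose, and no way to tell the agent from the series it was run in. The labels give an exposure of 48 h, while the methods give a shorter one.

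Glucose enters the cell through the SLC2A transporters and is trapped as glucose 6-phosphate by hexokinase. Phosphofructokinase-1, a tetramer of the liver (L), muscle (M) and platelet (P) subunits, then commits fructose 6-phosphate to glycolysis. Its strongest activator, fructose 2,6-bisphosphate, is made and removed by the PFKFB enzymes, whose isoforms differ in the balance of kinase and phosphatase activity. Many carcinoma lines take up glucose at a high rate, and PFKFB3, PFKFB4, HK2 and SLC2A1 are known targets of the hypoxia-inducible factors.

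The intensity is the scanner software's background-corrected signal after quantile normalization of the 8 arrays, and each log2 ratio is a treated array over the vehicle control run in the same series. The median probe signal was 182 to 214 on the EEDS arrays and 223 to 278 on the helveticoside arrays, over a local background of 27 to 34, and no spot was saturated. The software called 63.3% to 64.9% of the probes well above background in the EEDS series and 54.5% to 59.5% in the helveticoside series. For the 999 probes printed at 5 or more spots, the median SD between spots was 0.069 to 0.085 on the log2 scale. That SD covers the error within an array only, and each probe of the 10 genes was printed as 1 spot. All 10 markers of A549 epithelium that were examined were well above background on the 8 arrays, although CDH1 (E-cadherin), KRT19 and KRT18 fell across the doses of both agents and KRT8 across those of EEDS, with top-dose log2 ratios of -2.70 and -2.71 for CDH1. The part of these changes in the results below was not tested. Of 13 markers of blood, endothelium, fibroblasts and muscle, 3 (PTPRC, CDH5 and MYOG) were well above background on every array, and HBB, CD3E, PECAM1, VWF, DCN, CKM and MYH2 were so on none. In bulk RNA, fewer cells that express a gene and less RNA of it per cell cannot be told apart.

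**Figure D1:**
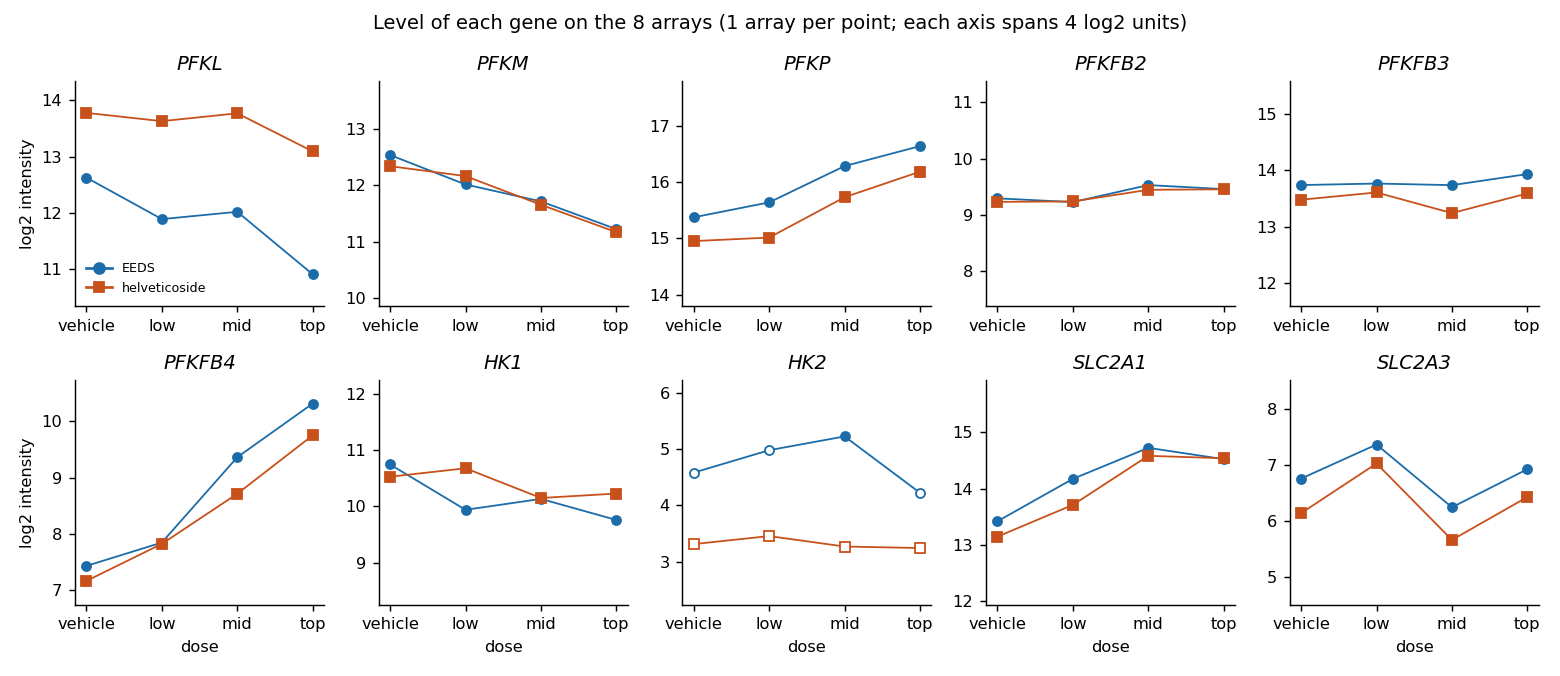
Level of each of the 10 genes on the 8 arrays, as log2 intensity of the brightest probe (y axis) against dose (x axis), with EEDS in blue circles and helveticoside in orange squares, 1 array per point and no error bar. Open symbols mark arrays on which the probe was not well above background, which were 7 of 8 arrays for HK2, and levels are not comparable between panels because each panel is a different probe.

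The upstream sequences of PFKL, PFKFB4 and SLC2A1 are shown because these 3 genes have a single start in the RefSeq promoter table of GRCh38.p14 and because PFKFB4 and SLC2A1 were both past 2-fold higher at the 2 upper doses of each agent while PFKL was past 2-fold lower at the top dose of EEDS. Each is the 250 bases before the start, 5′ to 3′ on the strand of the gene, and capitals mark matches on either strand to the motifs searched. The PFKFB4 start lies inside the annotated span of the gene.
PFKFB4, chr3:48556804-48557053, minus strand: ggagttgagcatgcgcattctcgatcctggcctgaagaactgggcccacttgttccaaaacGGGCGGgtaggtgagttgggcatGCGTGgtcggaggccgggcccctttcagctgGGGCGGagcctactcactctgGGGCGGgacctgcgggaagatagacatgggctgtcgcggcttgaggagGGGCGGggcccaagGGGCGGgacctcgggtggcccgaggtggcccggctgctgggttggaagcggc
SLC2A1, chr1:42958869-42959118, minus strand: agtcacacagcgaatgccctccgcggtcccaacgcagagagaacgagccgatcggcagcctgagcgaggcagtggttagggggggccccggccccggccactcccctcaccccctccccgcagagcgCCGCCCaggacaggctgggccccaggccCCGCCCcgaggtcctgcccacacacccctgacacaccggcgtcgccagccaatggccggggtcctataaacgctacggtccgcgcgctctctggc
PFKL, chr21:44299803-44300052, plus strand: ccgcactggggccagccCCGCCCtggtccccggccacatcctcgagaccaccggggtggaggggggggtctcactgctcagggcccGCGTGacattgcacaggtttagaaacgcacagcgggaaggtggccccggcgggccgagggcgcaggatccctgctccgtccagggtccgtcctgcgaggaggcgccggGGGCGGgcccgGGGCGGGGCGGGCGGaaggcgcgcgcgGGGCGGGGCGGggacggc

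The motifs were ACGTG, the core of the hypoxia response element, CACGTG, the E-box that contains it, GCGTG, its other form, GCGNGGGCG for the early growth response factors, TGANTCA for AP-1 and GGGCGG, the GC box, which can overlap GCGNGGGCG. PFKFB4 held 5 GC boxes and 1 GCGTG, SLC2A1 held 2 GC boxes, and PFKL held 7 GC boxes and 1 GCGTG. Of 35116 promoters, 42.6% held the GC box and 32.2% GCGTG in the same 250 bases. ACGTG was in 18.5% of them, CACGTG in 6.34%, GCGNGGGCG in 8.41% and TGANTCA in 6.57%, and in none of these 3 windows. A match is a run of letters and not a binding site. PFKP, which rose, has 4 listed starts, 1 of them with ACGTG, and PFKM, which fell, has 7, also 1 of them with ACGTG.

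Among the phosphofructokinase-1 subunits, PFKP rose with the dose of both agents while PFKM fell, and PFKL was lower at the top doses without passing the test. PFKP (chromosome 10, 3067548 to 3136805, GRCh38.p14) encodes the platelet subunit. Its intensity was 42509 with the vehicle of the EEDS series and rose to 51094, 79912 and 102188 at 1.25, 5 and 20 μg/mL. It was 31719 on the helveticoside control and 33131, 54450 and 74600 at 3.75, 15 and 60 nM. The level was higher at every dose than at the dose before in both series, a pattern held by 17.2% of measured genes with EEDS and 17.0% with helveticoside. Of the 6 treated arrays, only that of 3.75 nM helveticoside lay within the range of the controls. The top-dose ratio was 2.40-fold with EEDS and 2.35-fold with helveticoside, a log2 ratio of 1.27 and 1.23. The other PFKP probe, also well above background on all arrays, gave 1.22 and 1.17.

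PFKM (chromosome 12, 48105353 to 48146404) encodes the muscle subunit. Its intensity was 5944 on the EEDS control and 4137, 3357 and 2386 at the rising doses. In the helveticoside series it was 5181 on the control, then 4586, 3221 and 2299. The level was lower at every dose than at the dose before in both series, as it was for 16.5% of measured genes with EEDS and 14.7% with helveticoside. PFKM was 2.49-fold lower at 20 μg/mL EEDS and 2.25-fold lower at 60 nM helveticoside.

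PFKL (chromosome 21, 44300053 to 44327373) encodes the liver subunit. Its intensity was 6337 on the EEDS control and 3801, 4159 and 1926 at the rising doses, which made it 3.29-fold lower at 20 μg/mL. In the helveticoside series it was 14064 on the control, then 12701, 13986 and 8752, which made it 1.61-fold lower at 60 nM. Even the lowest helveticoside array was brighter than the EEDS control, and the vehicle controls differed by 1.15 on the log2 scale for PFKL, with no agent in either. Over 11489 genes that were well above background on each array, the same difference between the controls had a median of -0.11 and an SD of 0.48, and 4.76% of these genes differed by more than 2-fold. Against the EEDS control, PFKL at 60 nM helveticoside had a log2 ratio of 0.47 in place of -0.68, and at 3.75 and 15 nM it had 1.003 and 1.142 in place of -0.15 and -0.01, so its direction with helveticoside rests on the control of its own series. Scaling to the 75th percentile also gave 0.28 at 15 nM.

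The change in PFKP relative to PFKM, the difference of their log2 ratios, was 0.79, 1.73 and 2.58 at the rising EEDS doses and 0.24, 1.47 and 2.41 at the rising helveticoside doses. At the top doses this equals a shift of 5.99-fold and 5.30-fold in favour of PFKP. Relative to PFKL, the shift was 7.91-fold and 3.78-fold. These figures compare changes and not the amounts of the subunits, since levels of different probes cannot be set against each other. Isoforms moving in opposite directions were part of how these genes were chosen, so the shift describes that choice and does not test it.

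**Figure D2:**
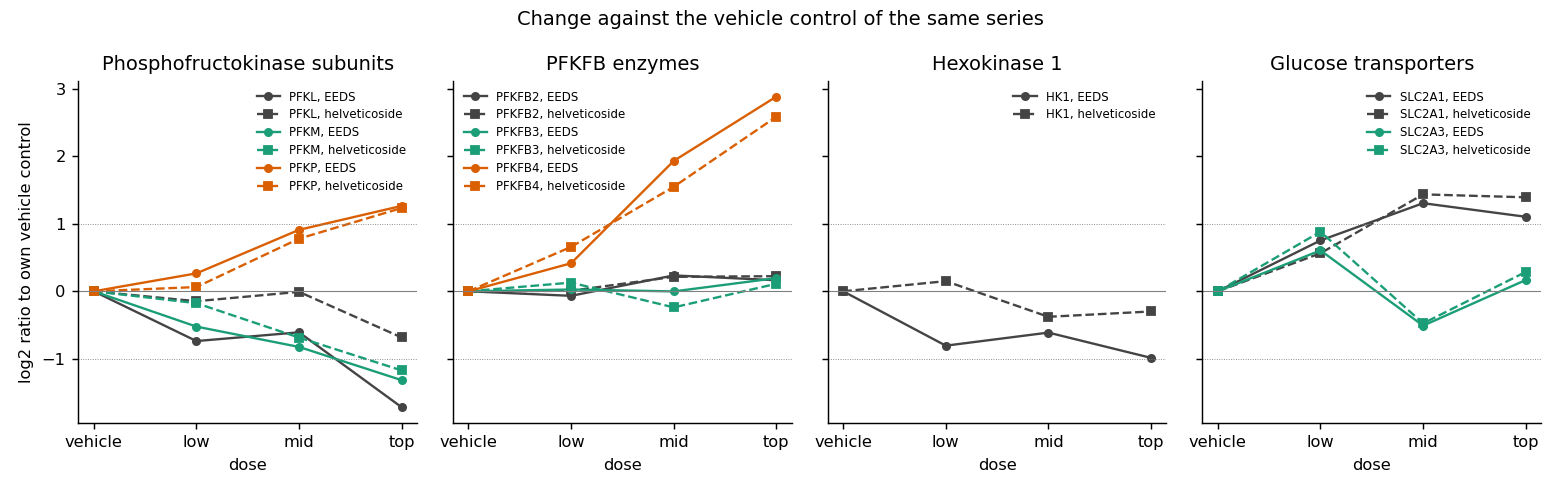
Log2 ratio to the vehicle control of the same series (y axis) against dose (x axis) for the phosphofructokinase subunits, the PFKFB enzymes, hexokinase 1 and the glucose transporters, with EEDS as solid and helveticoside as dashed lines, 1 array per point. PFKP and PFKFB4 run upward and PFKM downward with both agents, the SLC2A3 lines go up, down and up again, and HK2 is left out because its probes were mostly not well above background.

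Of the PFKFB enzymes, PFKFB4 rose most of the 10 genes and the brightest probes of PFKFB2 and PFKFB3 stayed within 0.24 of their controls on the log2 scale. PFKFB4 (chromosome 3, 48517684 to 48563136), the isoform first described in testis, had an intensity of 173 on the EEDS control and 231, 659 and 1277 at the rising doses. In the helveticoside series it was 144 on the control, then 227, 420 and 864. Every treated array lay above both vehicle controls. PFKFB4 was 7.39-fold higher at 20 μg/mL EEDS and 6.01-fold higher at 60 nM helveticoside, a log2 ratio of 2.89 and 2.59. The size depended on the background correction, with 2.30 and 2.05 for the signal as scanned and 2.61 and 1.84 in the authors' processed values, and the part of the low control signal in this was not tested.

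PFKFB3 (chromosome 10, 6144921 to 6326637), the isoform with the highest kinase activity relative to its phosphatase, had an intensity of 13668, 13925, 13653 and 15650 from the EEDS control to 20 μg/mL. In the helveticoside series it was 11413, 12479, 9676 and 12331. In each series the treated arrays lay on both sides of the control. A dimmer PFKFB3 probe, well above background on all arrays, gave log2 ratios of 0.87, 0.37 and 0.77 for EEDS and 0.43, 0.08 and 0.13 for helveticoside, so the 2 probes disagreed in size for EEDS.

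PFKFB2 (chromosome 1, 207034416 to 207081027), the isoform known from heart, had an intensity of 629, 600, 740 and 705 across the EEDS series and 602, 605, 698 and 703 across the helveticoside series. The 2 higher doses of each agent lay above both controls by a small margin. A dimmer PFKFB2 probe for another transcript was well above background at 5 and 20 μg/mL EEDS only. Its signal as scanned was 49.5 on the EEDS control, 66.0 at 1.25 μg/mL, 68.0 at 5 μg/mL and 101 at 20 μg/mL. Since 66.0 was not well above background, no fold is given for this probe. Relative to PFKFB3, PFKFB4 shifted 6.45-fold at the top dose of EEDS and 5.56-fold at that of helveticoside.

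HK1 (chromosome 10, 69270000 to 69401882), the hexokinase of most tissues, had an intensity of 1714 on the EEDS control and 980, 1121 and 865 at the rising doses. In the helveticoside series it was 1474, 1635, 1134 and 1198. All 3 EEDS doses lay below the control, with a log2 ratio of -0.81, -0.61 and -0.99, whereas helveticoside gave 0.15, -0.38 and -0.30. HK2 (chromosome 2, 74834127 to 74893359), the inducible hexokinase of muscle and many tumours, could not be measured. Its brighter probe was well above background only at 5 μg/mL EEDS, and its other probe on no array. At 5 μg/mL the brighter probe had an intensity of 37.4, against 24.0 on the EEDS control, and a signal as scanned of 76.0 against 66.0. At 1.25 μg/mL, where it was not well above background, the scanned signal was 78.5, so no fold is given.

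SLC2A1 (chromosome 1, 42925353 to 42958868), which encodes GLUT1, the basal glucose transporter of most cultured cells, had an intensity of 10956 on the EEDS control and 18469, 27078 and 23551 at the rising doses. In the helveticoside series it was 9069, then 13404, 24538 and 23813. All 6 treated arrays lay above both controls, and in both series the middle dose was the highest. The top-dose ratio was 2.15-fold for EEDS and 2.63-fold for helveticoside.

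SLC2A3 (chromosome 12, 7919230 to 7936187), which encodes GLUT3, a high-affinity transporter of neurons, was dim, and its probe may also read the near-identical SLC2A14. Its intensity was 108, 164, 75.9 and 121 from the EEDS control to 20 μg/mL and 70.6, 130, 50.8 and 86.2 from the helveticoside control to 60 nM. The log2 ratio was 0.61, -0.51 and 0.17 at the rising EEDS doses and 0.88, -0.48 and 0.29 at the rising helveticoside doses. The low dose was the highest and the middle dose the lowest array of each series in these values. At 15 nM the log2 ratio was 0.04 for the signal as scanned, 0.09 with normexp and 0.07 in the authors' processed values, so the drop there was seen with the main processing and not with these. With the arrays scaled to the 75th percentile, the top-dose ratio for EEDS turned to -0.30. For helveticoside the top-dose ratio turned to -0.25 with the mean of the probes and to -0.33 against the control of the EEDS series. A dimmer SLC2A3 probe, well above background on the EEDS arrays only, gave log2 ratios of 0.37, -0.18 and 0.20 there.

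At 20 μg/mL EEDS, 3 of the 9 genes measured on both arrays (PFKP, PFKFB4 and SLC2A1) exceeded their control by more than 2-fold, against 15.0% of all genes measured. Of the same 9, 2 (PFKL and PFKM) were more than 2-fold lower, against 15.9% of all genes. At 60 nM helveticoside the same 3 genes were more than 2-fold higher, against 11.0%, and PFKM alone was more than 2-fold lower, against 13.0%. At 5 μg/mL and at 15 nM, PFKFB4 and SLC2A1 were past 2-fold higher, against 7.61% and 5.53% of all genes, and none of the 9 was past 2-fold lower, against 8.32% and 6.73%. At the lowest doses none was past 2-fold in either direction, against 3.74% higher and 3.02% lower for EEDS and 1.24% and 1.20% for helveticoside. The median log2 ratio of the 9 genes at the top dose was 0.17 for EEDS and 0.22 for helveticoside, beside 0.02 and 0.00 over all genes. SLC2A1 at 20 μg/mL had 0.96 in the authors' processed values, PFKP at 60 nM had 0.81 against the control of the EEDS series, and PFKM at 60 nM had -0.95 with 75th percentile scaling, each then within 2-fold. With that scaling PFKP was also past 2-fold higher at 5 μg/mL (1.15) and 15 nM (1.21), and the mean of its probes put PFKFB2 past 2-fold higher at 20 μg/mL (1.28). With 1 array per dose these sizes carry no test, and the 10 genes were not drawn at random.

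The dose trends were tested with limma, as a slope per dose step fitted across the 8 arrays and adjusted over 19046 genes. With EEDS, 2 of the 10 genes rose, against 7.27% of all genes, and 1 fell, against 7.90%. With helveticoside the same 2 rose, against 5.48%, and the same 1 fell, against 5.83%. The risers were PFKFB4 and PFKP and the gene that fell was PFKM. PFKFB4 rose by 1.02 ± 0.11 (SE) log2 units per step with EEDS (limma adjusted p = 0.0133) and by 0.87 ± 0.11 with helveticoside (adjusted p = 0.0184). PFKP rose by 0.44 ± 0.07 with each agent (adjusted p = 0.0190 and 0.0238). PFKM had a slope of -0.43 ± 0.05 with EEDS and -0.40 ± 0.05 with helveticoside (adjusted p = 0.0145 and 0.0194). The spread behind these tests is that of the arrays about straight lines with 4 residual degrees of freedom, not that of replicate cultures. For each gene, limma drew that spread toward the spread of genes of similar intensity. The vehicle was placed at step 0 and the doses at steps 1, 2 and 3. The isoforms were chosen as moving in opposite directions, so these tests are not independent of that choice.

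Leaving out 1 array removed these calls in several fits. Without the EEDS control the limma adjusted p of the EEDS trends was 0.108 for PFKFB4, 0.124 for PFKP and 0.125 for PFKM, and without the 20 μg/mL array it was 0.123, 0.157 and 0.142. PFKP with EEDS also passed to 0.0529 without the 15 nM helveticoside array. For helveticoside, the adjusted p was 0.267 for PFKFB4, 0.268 for PFKP and 0.268 for PFKM without the 60 nM array, and 0.0624, 0.0666 and 0.0628 without the 15 nM array. Without the helveticoside control it was 0.0635 for PFKFB4 and 0.0507 for PFKM, and PFKP reached 0.0505 without the 5 μg/mL EEDS array. Over all alternatives it ran from 0.00165 to 0.123 for PFKFB4, 0.00436 to 0.157 for PFKP and 0.00245 to 0.142 for PFKM with EEDS. With helveticoside it ran from 0.00364 to 0.267, 0.00575 to 0.268 and 0.00389 to 0.268. In the fits without the EEDS control or the 20 μg/mL array, 0 of 19046 genes passed for EEDS (4617 and 3928 at an unadjusted p under 0.05), and without the 15 or the 60 nM array 0 passed for helveticoside (5041 and 3042), so the loss there was not particular to these genes. The slopes ranged over all alternatives from 0.82 to 1.23 for PFKFB4, 0.40 to 0.55 for PFKP and -0.45 to -0.35 for PFKM with EEDS, and from 0.61 to 0.96, 0.33 to 0.59 and -0.50 to -0.33 with helveticoside.

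The other genes did not pass the test. PFKL had a slope of -0.50 ± 0.12 with EEDS (limma adjusted p = 0.0508, 0.0127 to 0.419 over 18 alternatives, 7 of them past the threshold) and -0.19 ± 0.12 with helveticoside (adjusted p = 0.389). One of those 7 left out the 5 μg/mL array, which gave -0.56 and an adjusted p of 0.0393. SLC2A1 had a slope of 0.39 ± 0.13 with EEDS (adjusted p = 0.0961, 0.0189 to 0.657) and 0.51 ± 0.13 with helveticoside (adjusted p = 0.0605, 0.0187 to 0.305). It passed in 3 of 18 alternatives for EEDS and in 7 of 18 for helveticoside, one of them without the 20 μg/mL EEDS array (adjusted p = 0.0480). The level of SLC2A1 was highest at the middle dose in both series, whereas the test fits a straight line. HK1 had -0.28 ± 0.10 and -0.14 ± 0.10 (adjusted p = 0.131 and 0.454). Without the EEDS control the EEDS slope was -0.09 for HK1 and 0.18 for SLC2A1, and without the 20 μg/mL array it was 0.65 for SLC2A1 and -0.30 for PFKL. Without the 60 nM array the helveticoside slope of PFKL was -0.00. The slopes of PFKFB2, PFKFB3, HK2 and SLC2A3 lay between -0.08 and 0.09 per step, with adjusted p of 0.385 or more.

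**Figure D3:**
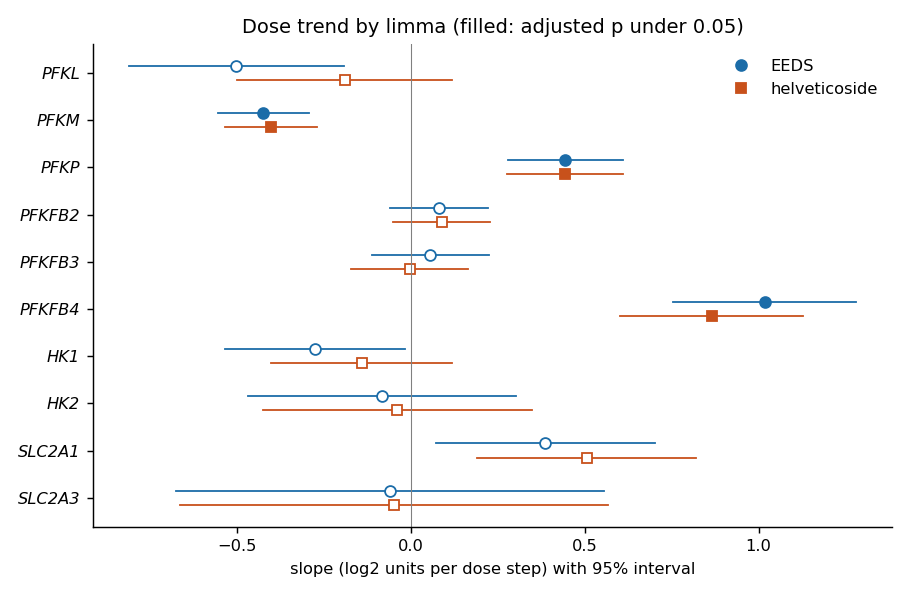
Slope of the dose trend in log2 units per dose step (x axis) for each of the 10 genes, with EEDS as blue circles and helveticoside as orange squares, lines for the 95% interval of the limma fit and filled symbols where the adjusted p was under 0.05. The filled symbols are PFKFB4 and PFKP on the right and PFKM on the left for both agents, and the interval of SLC2A3 with EEDS spans -0.68 to 0.55.

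The agents were set against each other as the difference of slopes, EEDS minus helveticoside, at dose steps that match in order and not in concentration. No gene of the 19046 passed the adjusted threshold in limma, and 2.76% had an unadjusted p under 0.05, none of them among the 10. The difference was 0.15 (95% interval -0.22 to 0.52) for PFKFB4, 0.00 (-0.23 to 0.24) for PFKP and -0.02 (-0.21 to 0.16) for PFKM. It was -0.31 (-0.75 to 0.13) for PFKL, whose controls stood apart, and -0.13 (-0.50 to 0.23) for HK1. The intervals leave room for differences of that size, so the agents were not shown to act alike.

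Of the 53 other genes of the pathway that were listed, 52 were tested, and ALDOA was not analysed here. With EEDS 5 rose and 5 fell, where 7.27% and 7.90% of all genes did. With helveticoside 6 rose and 3 fell, where 5.48% and 5.83% of all genes did. The 6 include HK3, which was well above background on no array. The median slope of the 52 was -0.06 with EEDS and -0.02 with helveticoside, beside 0.01 and -0.01 over all genes tested. Lower glycolysis, from glucose 6-phosphate isomerase to lactate dehydrogenase, held 15 tested genes, of which none rose with either agent. With shares of all genes this small, the lack of a riser among 15 does not set the list apart. The one that fell, with EEDS, was ENO3, an enolase of muscle, with a top-dose log2 ratio of -0.56 (-0.27 with helveticoside, adjusted p = 0.190). BPGM, which makes 2,3-bisphosphoglycerate, was more than 2-fold lower at both top doses (-1.23 and -1.02) without passing the test. GAPDH had -0.13 and -0.22, PGK1 -0.38 and -0.59, ENO1 -0.23 and -0.38, LDHA -0.26 and 0.17 and PGAM1 0.18 and 0.02. Over the 15 genes of lower glycolysis the median slope was -0.09 with EEDS and -0.08 with helveticoside, beside 0.01 and -0.01 over all genes. ALDOC, well above background on 4 arrays, had 1.44 at 20 μg/mL EEDS without passing the test (limma adjusted p = 0.272).

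Genes of lactate and pyruvate handling moved in both directions. With EEDS 4 of 12 rose and 3 fell, where 7.27% of all genes rose and 7.90% fell, and with helveticoside 3 rose and 2 fell, where 5.48% rose and 5.83% fell. PDP1, a phosphatase that activates pyruvate dehydrogenase, rose with both agents, with a top-dose log2 ratio of 1.53 and 1.67. PDK2 and PDK3, kinases that inactivate the same complex, fell with both, to -2.15 and -1.66 for PDK2 and -1.16 and -1.76 for PDK3. PDK4, of the same family, fell with EEDS (-1.39) and had -0.52 with helveticoside (limma adjusted p = 0.223). PDK1, also of that family, had -0.41 and -0.43 and passed the test with neither agent. SLC16A1, the lactate and pyruvate carrier MCT1, rose with both (1.54 and 1.26), as did MPC2, a subunit of the mitochondrial pyruvate carrier (0.57 and 0.61). SLC16A7, the carrier MCT2, rose with EEDS but was well above background on 2 arrays.

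Among the remaining lists, ADPGK, an ADP-dependent glucokinase, rose with both agents (1.26 and 1.01). TIGAR, a phosphatase that removes fructose 2,6-bisphosphate and so opposes the PFKFB kinases, rose with helveticoside, where its top-dose log2 ratio was 1.01, and had 0.67 with EEDS (adjusted p = 0.117). PGM2, a phosphopentomutase, fell with helveticoside (-1.39) and had -1.17 with EEDS (limma adjusted p = 0.0641). SLC2A6, a transporter of lysosomal membranes, was the 1 of 11 other transporters that passed the test, where 7.90% of all genes fell with EEDS. It fell with EEDS (-0.88) and had -0.56 with helveticoside (limma adjusted p = 0.103).

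**Figure D4:**
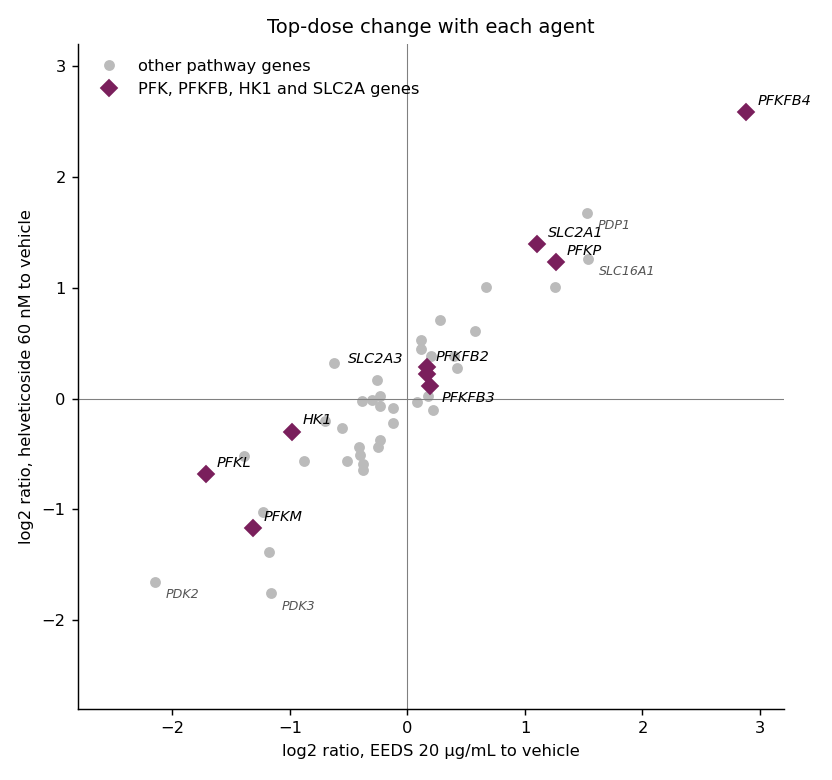
Top-dose log2 ratio with helveticoside at 60 nM (y axis) against that with EEDS at 20 μg/mL (x axis) for the 9 measured genes (diamonds) and the other pathway genes well above background on the arrays compared (grey circles), 1 array per condition and no error bar. PFKFB4 lies at 2.89 and 2.59, above every other gene plotted, and PFKM lies in the lower left with PDK2 and PDK3.

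The genes whose levels ran most like PFKFB4 over the 8 arrays, after each series' mean was subtracted, were SPATA2L (Pearson r = 0.998), C11orf68 (0.997), POLR2F (0.997), PIEZO1 (0.996) and GMEB1 (0.996), out of 11487 compared. Those most like PFKM were POLDIP2 (0.999), DRG2, TRADD and TBC1D1 (0.998 each) and VDAC3 (0.997). These correlations describe 8 arrays that share the order of doses, and they do not reflect size. The genes most like PFKFB4 had top-dose log2 ratios from 0.45 (POLR2F) to 1.46 (SPATA2L) with EEDS, beside 2.89 for PFKFB4. With helveticoside they ran from 0.39 to 1.37, beside 2.59. For the genes most like PFKM the EEDS ratios ran from -0.59 (DRG2) to -2.54 (TRADD), beside -1.32 for PFKM.

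Under the processings compared, the top-dose log2 ratio of PFKFB4 ran from 2.30 to 3.15 with EEDS and from 1.84 to 2.59 with helveticoside. PFKP ran from 1.12 to 1.69 and from 0.81 to 1.60, PFKM from -1.39 to -1.11 and from -1.37 to -0.95. Scaling to the 75th percentile in place of quantile normalization gave a median over all genes of -0.20, -0.21 and -0.36 for the log2 ratio at 1.25, 5 and 20 μg/mL EEDS and of 0.14, -0.12 and -0.18 at 3.75, 15 and 60 nM helveticoside. Relative to that median, PFKFB4, PFKP and PFKM kept their directions at every dose of both agents.

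**Figure D5:**
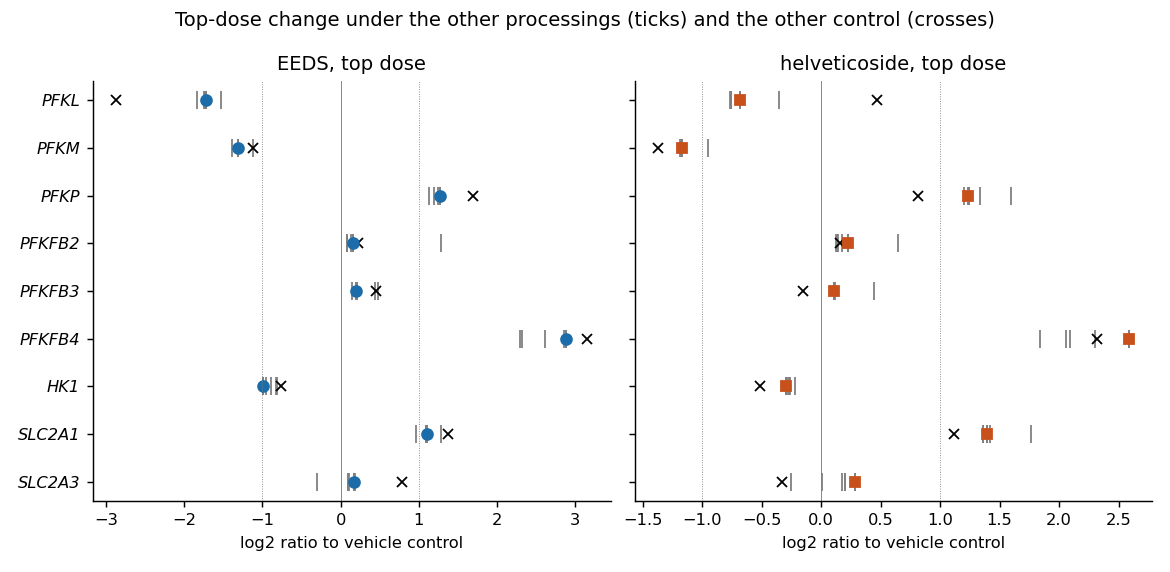
Top-dose log2 ratio (x axis) of the 9 measured genes for EEDS (left) and helveticoside (right), with coloured symbols for the reported value, grey ticks for the other processings and crosses for the ratio to the vehicle control of the other series. PFKL with helveticoside moves from -0.68 to 0.47 against the other control, and the isolated tick of PFKFB2 at 1.28 for EEDS is the mean of its bright and its dim probe.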

How the data were processed

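The authors deposited, per array, the scanner software's intensity of each spot, with a background-subtracted signal and calls of outlier and well-above-background spots, and a table of processed intensity values. Control and outlier spots were left out, spots of a probe were averaged, and the 8 arrays were quantile-normalized. A value under 1.4 times the local background was set to at least the lowest detected signal of its array, and log2 was taken. Accessions named the genes through RefSeq (GRCh38.p14), and a gene was read from its brightest probe on average. Where an array was not well above background, the ratio is a bound against the lowest signal that was, or against the array's own value where that was higher.

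The dose trends came from limma 3.58.1 under R 4.3.3 (robust estimation by statmod 1.5.0). Each series had its own intercept and slope, with Benjamini-Hochberg adjustment (threshold 0.05). The code was run on simulated arrays with normal errors about straight lines, to check the bias and sign of the slopes. That run does not bear on curved responses or on the lack of replicates. Other steps used pandas 2.3.3 and numpy 2.4.6 in Python 3.11.15, and figures matplotlib 3.10.9.

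The 10 genes were named throughout. Other pathway genes were named where limma gave an adjusted p under 0.05 or both top doses were past 2-fold, and likeness took the 5 highest Pearson r. GAPDH, PGK1, ENO1, LDHA, PGAM1 and ALDOC were given outside that rule, as examples of lower glycolysis, and PDK1 beside the other PDK genes. The genes, lists and markers were chosen with earlier results of these data known. The values of 1 listed marker are not reported here. The labels give 48 h of exposure and the methods 24 h. The labels name Cy5 as the dye.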

Additional observations from a re-analysis of the deposited data

How the results depend on the processing

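No paired analysis was possible because each condition was 1 array and no replicate number is shared. No slope or ratio that was past its threshold turned its direction, while PFKL with helveticoside went from -0.15 to 1.003 at 3.75 nM and from -0.01 to 1.14 at 15 nM against the vehicle control of the EEDS series. Fitted on the 4 arrays of each series alone, 0 of the 10 genes had a rising and 0 a falling limma trend with either agent, where the adjusted p was 0.103 for PFKFB4, PFKP and PFKM with EEDS and 0.0985 with helveticoside, and none of 19046 genes passed in these fits (5341 with EEDS and 4934 with helveticoside at an unadjusted p under 0.05), which have fewer arrays and the same slopes. The number falling with EEDS went from 1 to 2 for the signal as scanned, normexp, the 75th percentile, the authors' processed values and genes well above background on all 8 arrays (PFKL joined each time), and to 3 with 1 common intercept. Calls over all genes with EEDS, in either direction, went from 2889 of 19046 to 3543, 3569, 3981, 4604 (of 18203), 3598 (of 11489) and 5174, in that order. The gain was therefore not particular to these genes. With 1 array left out at a time, the genes that rose numbered 0 to 2 with EEDS and 0 to 3 with helveticoside (3 without the 20 μg/mL array), and those that fell 0 to 2 with EEDS and 0 to 1 with helveticoside. Over all genes, calls in either direction ran from 0 to 2639 with EEDS and from 0 to 1475 with helveticoside in these fits. At a 3-fold threshold, 1 gene was higher with each agent, 1 was lower with EEDS and 0 with helveticoside. At a 1.5-fold threshold 2 were lower with helveticoside. At 2-fold with 75th percentile scaling 0 were. No share of all genes is given for these thresholds and this scaling, so the counts are not a result about these genes. In the authors' processed values 9 other pathway genes fell with EEDS and 2 rose with helveticoside. There, 4604 of 18203 genes passed with EEDS and 1661 with helveticoside, in either direction. The mean of its probes gave PFKFB2 a slope of 0.42 with EEDS (limma adjusted p = 0.0363, range 0.0363 to 0.718), and 1 common intercept gave HK1 an adjusted p of 0.0400 (0.0400 to 0.843). Of the ratios and slopes of single genes recomputed, 840 kept their side of the threshold or, for a ratio, moved by less than the residual SD of the limma fit, 68 ratios moved by more, 19 slopes passed newly and 22 no longer did. The lack of replicates limits every value, and HK2 was mostly not well above background.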
